A study of Macaca mulatta with 12 samples.

Results

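Unstimulated blood macrophages of rhesus macaques (Macaca mulatta) were compared between 19 months (late) and 4.5 months (early) after transplant. The comparison rests on 6 of the 12 libraries of the series, 3 late and 3 early, chosen by their titles (Late CTL and Early CTL). Each transplant returned an animal's own mobilized CD34+ blood-forming cells after treatment with CRISPR/Cas9, the gene-cutting nuclease with its guide RNA, and the title of the study names mutant TET2 in the blood-forming cells. No label gives a library's allele or its share of edited cells, so all 6 libraries share the transplant and differ, as labelled, only in time. Cells carrying CD14 and CD163 but not CD16 were sorted from blood mononuclear cells by flow cytometry, plated at 250000 cells a well and kept for 8 h without a stimulus. The remaining 6 libraries (Late ACT and Early ACT) came from wells that, per the growth protocol, received lipopolysaccharide (LPS) at 100 ng/ml and interferon-gamma at 20 ng/ml, and serve here to share one estimate of the spread and to show where the late difference depended on stimulation. No label says whether the 3 libraries of a group came from separate animals, wells or draws. The p-values therefore speak of variation among libraries alone, and that variation may be technical. Time since transplant and animal age cannot be told apart, since each time point is 1 group. No label gives a day of sorting or sequencing, so any such difference between the time points could not be separated either.

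Monocytes and macrophages sense microbes through Toll-like receptors and cytosolic nucleic acid sensors, which act through adaptor proteins on the NF-kB, MAP kinase and interferon regulatory factor pathways. NF-kB drives cytokines such as interleukin 1, while interferon acts through JAK kinases and STAT factors on a large set of antiviral genes. Clonal hematopoiesis is the outgrowth of blood cells from a mutated stem cell, and loss of TET2, an enzyme that oxidizes methylated cytosine, is one of its common forms. Macrophages that lack TET2 are known in mice for high output of interleukin 1 beta and interleukin 6.

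Total counts ran from 6245345 to 10905354 in the early and from 3910680 to 7350214 in the late libraries. Levels are given in CPM, counts scaled by a library's own total. Intervals and spreads of reads without molecular identifiers cover counting error and library spread, not independent molecules. Replicates differed by more than counting noise in every pair (chi-square per degree of freedom 2.75 to 10.96). The largest values were those of Late CTL 3 against Late CTL 1 (10.56) and Late CTL 2 (10.96), while Late CTL 1 against 2 gave 3.34. An excess over counting noise cannot tell separate animals from separate preparations of the same cells, and each library was fitted as its own unit. Genes with a mean under 1 CPM over all libraries summed to 1521 ± 53 CPM (SD, n = 3) early and 4847 ± 525 CPM late. Among the tested genes under 1 CPM, 411 of 630 rose and 6 fell, against 755 that rose and 1307 that fell of 4641 between 10 and 100 CPM. A gene this low passed the filter on low counts only through libraries where it was higher, so that filter shapes the 411 and 6. The summed levels were taken without that filter, and they rose late. Members of gene lists were therefore counted only where the mean was at least 10 CPM in one of the 2 groups. The 14 genes that the authors' deposited table places on the mitochondrial genome summed to 13587 to 15267 CPM early and 20049 to 23391 CPM late. The part of these library-wide shifts in the gene results was not tested.

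Markers of the sorted cell were present and lower late. All 11 measured genes of the list of macrophage and CD14 monocyte markers fell (of 15 listed), and their summed level was 12923 to 13398 CPM in the early and 6664 to 7279 CPM in the late libraries. CD14, the LPS co-receptor used in the sort, read 2413, 2268 and 2395 CPM early and 1432, 1417 and 1754 CPM late, which was 1.44-fold lower (log2 fold change -0.53 ± 0.13 SE, adjusted p = 0.00203, edgeR quasi-likelihood test with Benjamini-Hochberg adjustment, as for every adjusted p below). CD163, the hemoglobin scavenger receptor also used in the sort, was 2.04-fold lower (1301 ± 38.9 CPM against 597 ± 17.2 CPM; here and below ± gives the SD of 3 libraries for a level and the SE for a log2 fold change). In bulk RNA, fewer cells of a type and less RNA per cell cannot be told apart. Defining markers of T cells were near 0 in both groups: CD3E, CD3G and CD8B never passed 0.256 CPM. The summed level of 9 measured T cell markers (of 12) was 295 to 319 CPM early and 333 to 369 CPM late, and IL7R alone reached 345 CPM in 1 late library. The summed level of 12 neutrophil markers (of 13) was 2001 to 2151 CPM early and 2052 to 2111 CPM late. It was carried by MMP9, which rose (log2 fold change 0.43), and CSF3R, which fell (-0.79), both also expressed by macrophages. The even sum thus joins opposite changes. CAMP, a granule peptide, read 131 to 146 CPM early and 69.2 to 87 CPM late, LCN2 reached 15.6 and CXCR1 10.1 CPM, both early, and LTF and MMP8 rose but never passed 1.7 and 4.86 CPM, while MPO never passed 2.93 CPM and ELANE 1.36 CPM. The 7 platelet markers (of 8) summed to 495 to 547 CPM early and 358 to 427 CPM late, nearly all from TUBB1, and PPBP never passed 2.56 CPM. Summed levels of NK cell markers (6 of 10) were 12.2 to 14.9 CPM early and 17.8 to 22 CPM late, of B and plasma cell markers (8 of 10) 11.5 to 13.3 and 7.7 to 11.9 CPM, of erythroid markers (8 of 11) 23.8 to 29.5 and 12.5 to 22.5 CPM, of dendritic cell markers (10 of 12) 190.0 to 208 and 164 to 194 CPM, of CD16 monocyte markers (4 of 8) 51.3 to 58 and 40.4 to 48.3 CPM, and of progenitor markers (7 of 10) 0.4 to 1.4 and 4.8 to 5.6 CPM. The part of these other cells in the results was not tested.

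Of 11826 genes tested, 4813 differed between late and early unstimulated cells (40.7%), 2471 higher (20.9%) and 2342 lower (19.8%). Among the 6822 with a mean of at least 10 CPM in one group, 3238 passed (47.5%), 1227 higher (18.0%) and 2011 lower (29.5%). These shares are the background against which each gene list below is read. The 3 late libraries all lay above the 3 early ones in 19.7% of the 6822 genes and all below in 42.4%. Calls with changes of at least 2-fold among the 6822 numbered 279 higher (4.09%) and 575 lower (8.43%). The median log2 fold change was 0.02 over all tested genes and -0.09 over the 6822. The split depended on scaling and filtering. With upper-quartile factors in place of TMM the median of all tested genes moved from 0.02 to 0.15, and 52.1% of the calls among the 6822 were higher, against 37.9% as reported. Upper-quartile factors gave 1680 higher and 1545 lower among the 6822, the background for list counts given below with that scaling. Of 5096 genes matched from the authors' deposited table of this comparison, 4191 were tested here, and all 3961 called in both had the same sign. Both rest on the same libraries, so the shared sign is no independent support.

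**Figure D1:**
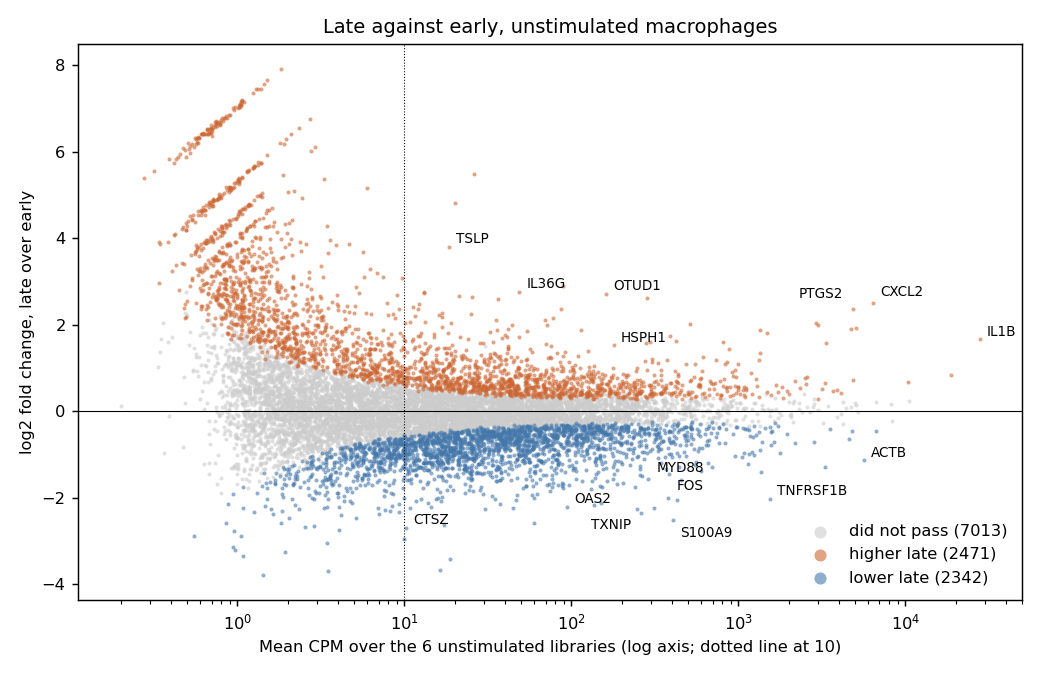
Each point is 1 of 11826 tested genes, with mean CPM over the 6 unstimulated libraries on a log axis and the log2 fold change of late over early cells on the other. Genes at the far left with large positive values had few or no early counts, and right of the dotted line at 10 CPM more genes fell (blue) than rose (orange).

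Secreted inflammatory mediators rose in late cells. Of 13 cytokine and growth factor genes at 10 CPM or more, 11 rose and 2 fell (median log2 fold change 1.05), and of 7 chemokine genes 5 rose and 2 fell (median 1.62). The 11 were CSF3, LIF, TNF, IL6, IL23A, CSF1, TNFSF15, VEGFA, IL1RN, IL10 and IL15, so the interleukin 1 receptor antagonist gene IL1RN and the anti-inflammatory cytokine gene IL10 rose together with the inflammatory ones. CSF3, the neutrophil growth factor G-CSF, read 194, 191 and 181 CPM early and 613, 545 and 612 CPM late. Every late library lay above every early one, and the fitted rise of the group was 3.34-fold (log2 fold change 1.74 ± 0.12, adjusted p = 4.02e-11). LIF, a cytokine of the interleukin 6 family, went from 14.4, 15.2 and 12.6 CPM to 61.9, 57.8 and 49.5 CPM, 4.27-fold (2.09 ± 0.16, adjusted p = 1.73e-10). IL10 rose less, 1.76-fold, from 25.7 ± 1.67 to 42.4 ± 4.33 CPM. The exceptions were OSM, another interleukin 6 family cytokine, which fell 2.27-fold (93.3 ± 2.85 to 38.5 ± 5.85 CPM), and TGFB1, a growth factor that restrains inflammation, which fell 1.32-fold.

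Further cytokine and growth factor genes carry names found only in the authors' deposited table or its descriptions. Those list only genes past the authors' threshold, so these genes stand outside the counts above. IL1A, the alpha form of interleukin 1, was very even within groups, at 1203, 1219 and 1201 CPM early and 4722, 4676 and 4569 CPM late. That was a 4.12-fold rise (log2 fold change 2.04 ± 0.12, adjusted p = 3.56e-12). IL36G, an interleukin 36 cytokine best known from skin, rose 6.76-fold from 13.1, 12.3 and 14.2 CPM to 79.5, 78.8 and 93.5 CPM (2.76 ± 0.16, adjusted p = 1.92e-12). TSLP, an epithelial cytokine that acts on dendritic cells, went from 3.52, 2.13 and 2.38 CPM to 32.7, 33.5 and 35.9 CPM, the largest rise among named genes at this level (3.80 ± 0.29, adjusted p = 2.53e-10). IL1B, the highest of them in CPM, read 13573, 13852 and 14733 CPM early and 40743, 37173 and 46829 CPM late (1.66 ± 0.11, adjusted p = 2.24e-11). EREG, an epidermal growth factor receptor ligand, rose 3.71-fold, with late libraries at 8702, 7959 and 5295 CPM. In Mmul_8.0.1 coordinates, the authors' deposited table has IL1A (ENSMMUG00000019777) on chromosome 13 from 107765464 to 107774298, IL36G (ENSMMUG00000000989) on chromosome 13 from 107975822 to 107982848 and TSLP (ENSMMUG00000004669) on chromosome 6 from 108543259 to 108549978.

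Chemokines draw leukocytes. CXCL2, a neutrophil chemokine named from the authors' deposited table, went from 2039, 2105 and 1973 CPM to 10318, 11079 and 10877 CPM, 5.63-fold (log2 fold change 2.49 ± 0.14, adjusted p = 9.39e-13). CXCL1, its close relative, rose 3.97-fold (1267 ± 48.3 to 4712 ± 322 CPM), and reads that fit both genes could be split between them. CCL2, the main monocyte chemokine, rose 5.13-fold from 29.3, 28.4 and 32.3 CPM to 130.4, 144 and 158 CPM. CCL20, which acts through CCR6, rose 3.08-fold and CCL18 3.26-fold. CCL3 and CCL4L1, of the multicopy MIP-1 family, rose 3.68-fold and 2.99-fold, with the same limit on shared reads. CXCL10, an interferon-induced T cell chemokine, fell 6.17-fold, from 34.7, 27.8 and 27 CPM to 6.9, 4.35 and 2.93 CPM (-2.63 ± 0.26, adjusted p = 2.35e-08). CXCL16, a membrane-bound chemokine that also binds oxidized lipoprotein, fell 1.74-fold.

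In the prostaglandin and leukotriene list, PTGS2 rose while most of the called members fell. PTGS2, the inducible cyclooxygenase that starts prostaglandin synthesis, was at 1665, 1716 and 1620.5 CPM early and 8382, 8577 and 7223 CPM late, a 5.16-fold rise (log2 fold change 2.37 ± 0.15, adjusted p = 1.04e-11). PLA2G4A and PLA2G4C, cytosolic phospholipases that release arachidonic acid, rose 3.00-fold and 1.70-fold. Of 14 members, 3 rose and 8 fell (median -0.44). ALOX5, the first enzyme of leukotriene synthesis, fell 2.71-fold (60.2, 51.5 and 57.6 CPM to 16.4, 23.5 and 17.9 CPM), and TBXAS1, the thromboxane synthase, fell 1.66-fold. The other fallen members were PTGES2, PLA2G7, ALOX5AP, LTA4H, AKR1B1 and PTGER2.

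The list of matrix proteases, inhibitors and related matrix genes moved both ways, 8 of 26 genes higher and 6 lower (median 0.07). Of all genes at this level, 18.0% were higher and 29.5% lower. The metalloproteinases MMP10, MMP1, MMP12, MMP19 and MMP9 rose, as did SERPINB2, SPP1 and PLAUR. MMP10, a stromelysin, went from 206, 216 and 228 CPM to 812, 779.8 and 853 CPM, 4.01-fold (log2 fold change 2.00 ± 0.11, adjusted p = 7.86e-13). MMP1, an interstitial collagenase, rose 2.72-fold (495 ± 18.2 to 1260.5 ± 37 CPM). MMP12, the macrophage elastase, rose 6.46-fold but from a low level (2.51 ± 0.306 to 15.5 ± 0.369 CPM). VCAN, a matrix proteoglycan that marks CD14 monocytes, fell 2.09-fold, from 1454, 1439 and 1470.2 CPM to 703, 654 and 604 CPM. ADAM8, ADAM19, MMP25, ADAM15 and TGFBI were the other members that fell.

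**Figure D2:**
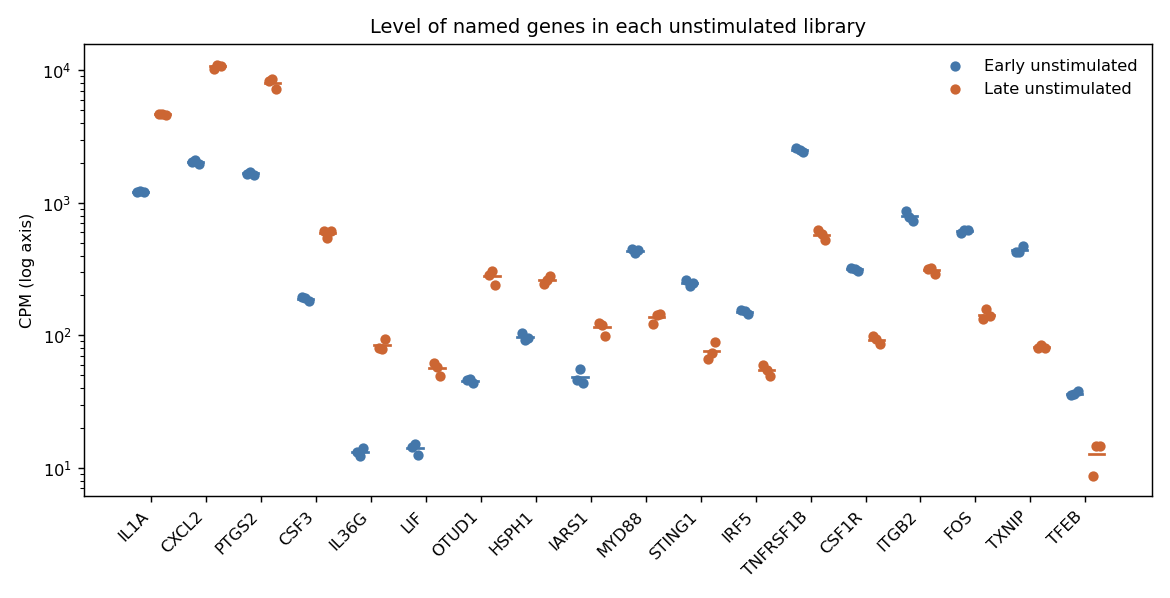
The level of 18 genes in each of the 3 early (blue) and 3 late (orange) unstimulated libraries is plotted in CPM on a log axis, with a short line at each group mean. Mediators such as IL1A and CXCL2 are higher late, and sensors, receptors and regulators from MYD88 to TFEB lower late. The groups do not overlap in any of the 18, but genes named by size or level were chosen for that. Of the 6822 genes at 10 CPM or more, 19.7% lay all above and 42.4% all below.

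Of 17 pattern recognition receptors and adaptors, 2 rose and 7 fell (median -0.21), and 4 rose with upper-quartile scaling. The 2 and 7 stand beside 18.0% higher and 29.5% lower of all genes at this level with TMM. MYD88, the adaptor shared by most Toll-like receptors and the interleukin 1 receptor, fell 2.99-fold, from 446, 419.9 and 444 CPM to 121, 143 and 146 CPM (log2 fold change -1.58 ± 0.13, adjusted p = 5.56e-10). STING1, the endoplasmic reticulum adaptor for cytosolic DNA, fell 3.05-fold, from 263, 235 and 250.1 CPM to 65.7, 73.3 and 89.6 CPM (-1.61 ± 0.13, adjusted p = 1.16e-09). The late libraries of both genes lay below every early library. TICAM1, NOD2, NOD1, TLR2 and DHX58 also fell, whereas TLR5, the flagellin receptor, rose 1.60-fold (32.5 ± 2.29 to 49.2 ± 8.35 CPM) and CLEC4E rose 1.47-fold. TLR4, the LPS receptor, did not pass (789 ± 11.9 and 847 ± 60.1 CPM, adjusted p = 0.171).

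The NF-kB list moved both ways, 4 of 22 members higher and 8 lower (median -0.14). Of all genes at this level, 18.0% were higher and 29.5% lower, so the list's share of rises is that of the background. IRAK1, a kinase that acts downstream of MYD88, fell 2.58-fold (115 ± 14 to 41.8 ± 10.7 CPM), and IKBKE, a kinase of the interferon branch, fell 2.92-fold. RELB, a subunit of the alternative pathway, fell 2.18-fold (113 ± 8.8 to 48.3 ± 6.21 CPM) and TNIP2, an inhibitor of the pathway, 1.95-fold. TRAF1 rose 1.72-fold, REL 1.47-fold, NFKBID 1.33-fold and TNFAIP3, the A20 deubiquitinase that ends NF-kB signalling, 1.29-fold. Outside the list, OTUD1, a deubiquitinase, was among the largest rises, from 45.6, 47.1 and 43.4 CPM to 287, 307 and 241 CPM, 6.54-fold (log2 fold change 2.71 ± 0.13, adjusted p = 1.11e-13).

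Inflammasome genes, which lead to the cleavage of interleukin 1 beta, also moved both ways, with 4 of 15 higher and 4 lower (2 higher without Early CTL 2). The shares over all genes at this level were 18.0% higher and 29.5% lower. NLRP3, the sensor itself, rose 1.38-fold (261 ± 4.53 to 337 ± 10.7 CPM). CASP1, the protease, fell 1.37-fold (179 ± 8.48 to 122 ± 17 CPM) and GSDMD, which forms the membrane pore, 2.31-fold (45.1 ± 3.69 to 18.2 ± 1.39 CPM). NLRP12, a relative described as a brake on inflammation, had the largest change of the list, from 122, 117 and 117 CPM to 29.9, 26.5 and 36.6 CPM, 3.59-fold lower (log2 fold change -1.84 ± 0.15, adjusted p = 1.04e-09).

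Several abundant surface receptors fell. TNFRSF1B, the second receptor for TNF, fell 4.08-fold, from 2595, 2518 and 2413 CPM to 623, 578 and 528 CPM (log2 fold change -2.03 ± 0.13, adjusted p = 8.7e-12), while its ligand gene TNF rose 3.00-fold. CSF1R, the receptor for the growth factor on which monocytes depend, fell 3.19-fold, from 321, 315 and 308 CPM to 99, 93.3 and 85.8 CPM (-1.67 ± 0.14, adjusted p = 8.45e-10), while its ligand gene CSF1 rose 2.07-fold (93.4 ± 8.69 to 181 ± 15.8 CPM). Of 15 chemoattractant and growth factor receptors, 7 fell, 1, the formyl peptide receptor FPR2, rose and 7 did not pass. The complement receptors C5AR1 and C5AR2 fell 1.89-fold and 2.33-fold, and the nucleotide receptor P2RY2 3.01-fold.

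Of 20 scavenger and clearance receptors, 12 fell and 2 rose, CLEC4E and MSR1 (median -0.52), with 4 higher under upper-quartile scaling and 0 without Early CTL 1 or Early CTL 2. TREM1, an amplifier of Toll-like receptor signals, fell 1.87-fold, from 1741, 1745 and 1879 CPM to 909.8, 855 and 926 CPM. SCARF1 fell 3.05-fold and ADGRE5, an adhesion receptor, 2.30-fold. Of 21 Fc receptor, complement and integrin genes, 10 fell and 3 rose (median -0.29). ITGB2 and ITGAM, the 2 chains of the integrin that binds complement and fibrinogen, fell 2.39-fold and 2.13-fold. ITGB2 read 861, 782 and 732 CPM early and 319, 324 and 288 CPM late (log2 fold change -1.26 ± 0.14, adjusted p = 8.5e-08). CD55, which protects cells from complement, rose 1.71-fold, ITGB8 2.19-fold and C3 1.25-fold.

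Of 16 costimulatory and checkpoint ligands, 7 fell and 2 rose, in the direction in which all genes at this level also leaned. VSIR, an inhibitory ligand, fell 3.51-fold with almost no spread late (209.9, 210.5 and 204 CPM to 55.5, 55.2 and 56 CPM, log2 fold change -1.81 ± 0.12, adjusted p = 1.04e-11). The inhibitory receptors LILRB4 and LILRB1 fell 2.22-fold and 1.87-fold, although the leukocyte receptor complex holds near copies between which counting may split reads. CD276 rose 2.73-fold and SLAMF7 2.34-fold. Of 10 MHC class II genes, 4 fell and 1 rose. MARCHF1, which removes class II molecules from the surface, fell 3.04-fold, and CD1D, which presents lipids, 2.17-fold. MAMU-DOB fell 4.10-fold with wide late spread (24.8, 10.1 and 6.02 CPM), and, as for all MHC genes, alleles and copies can share reads.

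Of 39 type I interferon-stimulated genes, 34 fell and 1, the helicase gene DDX60, rose (median log2 fold change -0.90). CMPK2, a mitochondrial nucleotide kinase induced by interferon, went from 82.9, 85.1 and 80.3 CPM to 26.3, 21.8 and 22.4 CPM, 3.33-fold lower (-1.73 ± 0.13, adjusted p = 3.25e-10). IFIT5, which binds RNA, fell 3.83-fold, from 75.3, 76.1 and 75 CPM to 22.5, 17.3 and 16.4 CPM. DDX60 rose 1.97-fold from a low level (7.19 ± 2.26 to 12.8 ± 1.98 CPM). APOBEC3A, a cytidine deaminase induced by interferon and one of a family of near copies, fell 2.47-fold, from 1013, 993 and 1029 CPM to 339.8, 394 and 417 CPM.

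Of 20 interferon receptors, STATs, IRFs and their regulators, 12 fell and 1 rose (median -0.45). IRF5, which couples MYD88 to inflammatory genes, fell 2.59-fold, from 155, 153 and 144 CPM to 59.3, 54.6 and 49.5 CPM (log2 fold change -1.38 ± 0.13, adjusted p = 5.93e-09). IRF3, which acts below STING1, fell 2.54-fold and SOCS1, a brake on JAK signalling, 2.02-fold. IRF4, associated with alternative activation, rose 1.91-fold (6.5 ± 1.17 to 11.6 ± 1.4 CPM). The receptor genes IFNAR1, IFNAR2 and IFNGR2 did not pass.

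Of 21 genes of the interferon-gamma response and MHC class I loading, 12 fell and 0 rose by edgeR, 0 at an unadjusted p under 0.05 and 0 by DESeq2 (median -0.49), but 1 rose with upper-quartile scaling and 1 without Late CTL 3 or Early ACT 1. The immunoproteasome subunits PSMB8 and PSMB9, which cut peptides for MHC class I, fell 2.77-fold and 2.95-fold. PSMB8 read 98.6, 103 and 99.6 CPM early and 36.1, 32.5 and 33.8 CPM late (log2 fold change -1.47 ± 0.14, adjusted p = 1.23e-08). By contrast, of 27 constitutive proteasome subunits 4 fell and 2 rose, and 21 did not pass (7 fell without Late CTL 3, 8 without Early ACT 1). NLRC5, which switches on MHC class I genes, fell 2.37-fold, TAPBP, a peptide-loading chaperone, 2.15-fold and the checkpoint ligand gene CD274 1.85-fold.

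**Figure D3:**
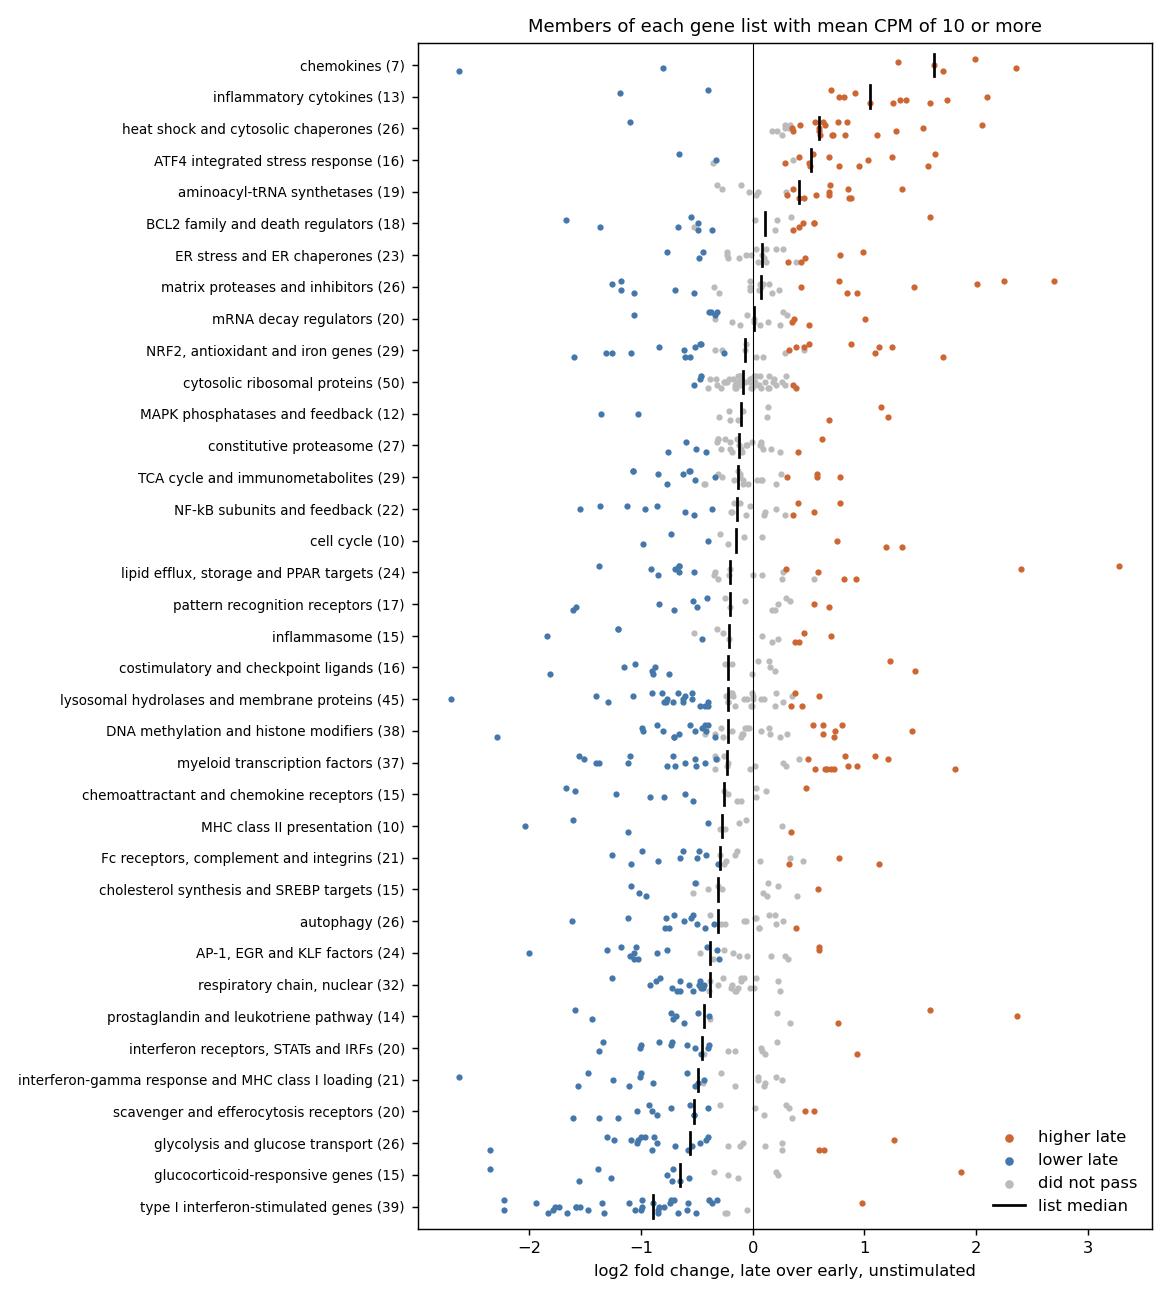
Each point is the log2 fold change of a gene with a mean of at least 10 CPM, late over early in unstimulated cells, in 37 gene lists ordered by median (black bar), with the number of members in parentheses. Chemokines, cytokines, chaperones, stress response genes and tRNA synthetases lie to the right, and interferon-stimulated, glucocorticoid-responsive and glycolysis genes to the left.

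Of 26 heat shock proteins and cytosolic chaperones, 18 rose and 1 fell (median 0.59). HSPH1, a partner of HSP70, went from 104, 92.5 and 95.1 CPM to 243, 262 and 280.0 CPM, 2.88-fold (log2 fold change 1.52 ± 0.13, adjusted p = 1.03e-09). HSPD1, the mitochondrial HSP60, rose 2.42-fold (66.6 ± 3.35 to 152 ± 8.54 CPM), DNAJA1 2.16-fold and HSPA4L 4.15-fold from a low level. The member that fell was HSF1, the factor that drives heat shock genes, with 25.6 ± 2.1 CPM early and 10.9 ± 4.3 CPM late (-1.10 ± 0.21, adjusted p = 0.000207). Of 23 stress genes and chaperones of the endoplasmic reticulum, 5 rose and 3 fell (median 0.09), and the share that rose was near the 18.0% of all genes at this level. Those that rose included XBP1, a factor of the unfolded protein response, 1.72-fold higher, ERO1B 1.98-fold and HSPA5 (BiP) 1.38-fold higher.

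Of 19 aminoacyl-tRNA synthetases, which load amino acids on tRNA, 12 rose and 0 fell by edgeR, 0 at an unadjusted p under 0.05 and 0 by DESeq2 (median 0.41), but 1 fell without Late CTL 3 and 2 without Early ACT 1. IARS1 went from 45.8, 55.9 and 43.4 CPM to 125, 119.6 and 99.3 CPM, 2.52-fold (log2 fold change 1.34 ± 0.14, adjusted p = 3.28e-08). LARS1 rose 1.84-fold, EPRS1 1.80-fold and NARS1 1.60-fold. Of 16 genes of the integrated stress response, most of them targets of the factor ATF4, 12 rose and 2 fell (median 0.53). SLC7A11, the cystine transporter, rose 2.36-fold, from 411, 387 and 349 CPM to 974, 865 and 701 CPM (1.24 ± 0.12, adjusted p = 1.92e-08). ASNS, asparagine synthetase, rose 2.96-fold (15.1 ± 3.39 to 41.6 ± 1.71 CPM) and CTH, of cysteine synthesis, 3.10-fold (5.03 ± 1.18 to 15 ± 1.81 CPM). TRIB3, a feedback inhibitor of the same pathway, fell 1.58-fold, and CEBPB fell 1.25-fold. The other members of both lists that rose were MTHFD2, CHAC1, PSAT1, SLC3A2, SESN2, SHMT2, SLC38A2, PPP1R15A, VEGFA, RARS1, GARS1, TARS1, FARSB, SARS1, AARS1, YARS1 and MARS1, between 1.22-fold (PPP1R15A) and 2.05-fold (PSAT1).

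Of 26 glycolysis and glucose transport genes, 17 fell and 3 rose (median -0.56), with 5 higher under upper-quartile scaling. LDHA, which makes lactate, read 1519.8, 1584 and 1639 CPM early and 731, 714 and 784 CPM late, 1.99-fold lower (log2 fold change -1.0 ± 0.11, adjusted p = 6.11e-08). SLC16A3, a lactate exporter, fell 2.47-fold (643 ± 35.6 to 244 ± 17 CPM) and GAPDH 1.95-fold. TXNIP, an arrestin that removes glucose transporters from the surface and is counted on this list, fell most: 429, 429 and 471 CPM became 79.5, 84.5 and 80.1 CPM, 5.10-fold lower (-2.35 ± 0.12, adjusted p = 1.54e-13). The 3 that rose were the glucose transporter SLC2A1 (1.51-fold, 307 ± 16.4 to 434 ± 5.63 CPM), the monocarboxylate transporter SLC16A1 (2.39-fold) and ADM (1.56-fold), a peptide hormone gene induced by low oxygen.

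Of 32 nuclear subunits of the respiratory chain, 15 fell and 0 rose by edgeR, 0 at an unadjusted p under 0.05 and 0 by DESeq2 (median -0.39). UQCRC1, of complex III, fell 1.78-fold (433, 415 and 441 CPM to 203, 219 and 257 CPM), SDHA, of complex II, 1.57-fold and NDUFV1, of complex I, 2.39-fold. The 14 genes that the authors' deposited table places on the mitochondrial genome all rose here (median 0.68), but that table lists only genes past its own threshold, and none of the mitochondrial subunit genes could be matched by name. Of 29 genes of the citrate cycle and linked metabolites, 4 rose and 9 fell, shares near the 18.0% higher and 29.5% lower of all genes at this level. The 4 became 2 when Early CTL 1, 2 or 3 or Late CTL 1 or 2 was left out. FH, fumarate hydratase, was 1.72-fold higher and MDH2, malate dehydrogenase, 2.10-fold lower.

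Of 45 lysosomal genes, 20 fell and 4 rose (median -0.22), the 4 becoming 8 with upper-quartile scaling and 2 without Early CTL 2 or Late CTL 3. TFEB, the master factor of lysosomal genes, fell 2.64-fold, from 35.2, 35.9 and 38 CPM to 8.69, 14.7 and 14.5 CPM (log2 fold change -1.40 ± 0.19, adjusted p = 2.62e-06). CTSZ, a cathepsin, fell 6.49-fold (18 ± 3.52 to 2.59 ± 0.167 CPM) and CTSB 1.64-fold (3615 ± 64.8 to 2064 ± 116 CPM), whereas CTSL rose 1.36-fold and the proton pump subunit ATP6V1A 1.5-fold. Of 26 autophagy genes, 12 fell and 1, ATG3, rose (7 fell with upper-quartile scaling). ATG16L2 fell 3.06-fold and GABARAPL1, of the membrane-tagging family, 1.71-fold.

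Of 29 antioxidant and iron genes, 9 rose and 12 fell, and the list's median of -0.07 became 0.06 with upper-quartile scaling. Several targets of the factor NRF2 rose, SRXN1 2.14-fold (670.4, 663 and 663 CPM to 1327, 1307 and 1364 CPM, log2 fold change 1.10 ± 0.10, adjusted p = 8.21e-09), GCLM, of glutathione synthesis, 2.19-fold, and NQO1 3.25-fold (10.6 ± 0.441 to 32.5 ± 5.11 CPM). HMOX1, heme oxygenase and also an NRF2 target, fell 2.49-fold, from 107, 115 and 131 CPM to 34.3, 41.8 and 56.1 CPM. SLC11A1, the phagosomal metal exporter, fell 3.02-fold (692 ± 11.7 to 215 ± 4.7 CPM). Among 24 lipid genes, 6 rose and 8 fell. PLIN2, which coats lipid droplets, rose 1.76-fold (700.2 ± 34.2 to 1155 ± 79.6 CPM), FABP4, a fatty acid carrier, 9.69-fold (1.28 ± 0.598 to 11.2 ± 2.14 CPM) and APOE 5.29-fold (3.73 ± 1.32 to 18.9 ± 7.72 CPM). ACSL1, of fatty acid activation, fell 1.58-fold. Of 15 cholesterol synthesis genes, 1 rose and 4 fell, beside 18.0% higher and 29.5% lower of all genes at this level. SREBF1, which drives lipid synthesis, was 2.12-fold lower.

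Of 24 AP-1, EGR and KLF genes, most of them rapidly induced, 13 fell and 2 rose (median -0.38). FOS, a subunit of the classical AP-1 pair, fell 4.00-fold, from 594, 626 and 619 CPM to 133, 158 and 140.1 CPM (log2 fold change -2.0 ± 0.11, adjusted p = 9.39e-13). FOSL2 and KLF10 fell 2.08-fold and 2.07-fold, as did ZFP36, whose product destabilizes cytokine mRNA, 2.08-fold (551 ± 27.5 to 248 ± 2.56 CPM). FOSL1 rose 1.51-fold (188 ± 1.46 to 266 ± 8.67 CPM) and MYC 1.5-fold. Of 12 MAP kinase phosphatase and feedback genes, 3 rose, the inhibitors SPRY2, SPRED1 and DUSP10, and 2 fell, DUSP18 and MAPK3. Over all genes at this level 18.0% rose and 29.5% fell.

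Of 37 myeloid transcription factors, 12 rose and 14 fell (median -0.23). SPI1 (PU.1), the factor that defines myeloid cells, fell 2.15-fold, from 364, 404 and 369 CPM to 167, 158 and 172 CPM (log2 fold change -1.10 ± 0.11, adjusted p = 3.13e-08). CEBPD fell 2.93-fold (58.1 ± 4.31 to 18.4 ± 2.56 CPM) and RXRA, a partner of nuclear receptors, 2.84-fold. Those that rose were ID2, ZEB1, RUNX2, MAFF, EPAS1, ETS2, ETS1, CEBPZ, AHR, IRF4, NR3C1 and ID3. Of 15 genes known to respond to glucocorticoids, 9 fell and 1 rose (median -0.65), while the receptor gene NR3C1 was among those that rose. PER1, a clock gene, fell 2.61-fold (59.2 ± 2.05 to 21.1 ± 3.55 CPM) and CRISPLD2 2.40-fold. ERRFI1, a feedback inhibitor of the epidermal growth factor receptor, rose 3.65-fold (16.2 ± 2.13 to 55.6 ± 8.66 CPM).

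Of 38 DNA methylation and histone modifier genes, 7 rose and 15 fell (median -0.22), 9 lower with upper-quartile scaling and 4 higher without Early CTL 1. The share that rose was near the 18.0% of all genes at this level, of which 29.5% fell. TET2 was among those that rose, 1.66-fold, from 269, 281 and 262 CPM to 415, 427 and 418 CPM (log2 fold change 0.73 ± 0.11, adjusted p = 8.78e-06). The level of its mRNA says nothing of the share of edited alleles, which these counts do not hold. HDAC7 fell 4.87-fold (12.9 ± 0.125 to 2.45 ± 0.239 CPM), HDAC5 1.80-fold and KMT2D, a histone methyltransferase, 1.75-fold.

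Among 18 BCL2 family and death genes, 6 rose and 7 fell, 4 with upper-quartile scaling. Without Early CTL 3 or Late CTL 1 the number that rose was 3. The death-promoting genes BMF and BAX fell 3.17-fold and 2.57-fold, with BMF going from 128, 138 and 141 CPM to 42.2, 37.3 and 41.3 CPM (log2 fold change -1.67 ± 0.13, adjusted p = 1.99e-10). Only 10 of 42 cell cycle genes reached 10 CPM, of which 3 rose, CCNB1, PCNA and MCM4, and 3 fell, CCND3, CDKN2D and CDC20. Of 50 cytosolic ribosomal protein genes, 2 rose and 3 fell, smaller shares than the 18.0% higher and 29.5% lower of all genes at this level. However, 9 fell without Late CTL 3, 12 without Early ACT 1 and 0 with upper-quartile scaling. Of 20 mRNA decay regulators, 4 rose and 5 fell, shares near those of all genes at this level. Those counts ran from 1 to 5 and from 1 to 4 when single libraries of the comparison were left out.

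By size alone, the largest rises among named genes at 10 CPM or more were TSLP, FLG2, FABP4, RND3, AKR1B10, TTN, SERPINA6, RNF144A, IL36G, AMBP, ARHGAP20 and OTUD1. Most had early levels of a few CPM. FLG2 (0.953 ± 0.88 to 10.4 ± 2.5 CPM) is normally an epidermal and TTN a muscle gene. RNF144A, a ubiquitin ligase, was better measured, at 28.5, 22.3 and 17.3 CPM early and 172, 155 and 140.1 CPM late, 7.40-fold higher (log2 fold change 2.89 ± 0.15, adjusted p = 3.76e-13). The largest falls were HILPDA, CTSZ, CXCL10, LRRC25, S100A9, TNFRSF8, TXNIP, MCEMP1, HDAC7, CYTH4, TYMP and OLIG1. LRRC25, a regulator of innate signalling, went from 112, 104 and 93.3 CPM to 17.9, 14.4 and 16.5 CPM (-2.58 ± 0.16, adjusted p = 6.57e-12). TYMP, thymidine phosphorylase, fell 4.78-fold, from 423, 415 and 399 CPM to 79.3, 83 and 79.7 CPM. S100A8 and S100A9, the paired calcium-binding alarmins of monocytes, fell 4.75-fold and 5.77-fold. Abundant genes that fell at least 2-fold included ACTB, cytoskeletal actin (7911 ± 68.7 to 3362 ± 234 CPM), PLBD1, PLEC and CAPG.

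The late difference was then set against that in cells kept with LPS and interferon-gamma, in the same fit. Of the 1227 genes higher late without a stimulus, 711 were also higher late with it, 25 were lower and 491 did not pass. Of the 2011 lower late, 1577 were also lower with it, 2 were higher and 432 did not pass. Of the 6822 genes, 3139 (46.0%) passed in stimulated cells. A test of the difference between these differences was passed by 167 of 11826 genes (1.41%), and by 1280 at an unadjusted p under 0.05. Of the 156 at 10 CPM or more (2.29%), the late minus early difference was more positive without a stimulus in 140 and more negative in 16. The count of 167 became 546 without the library Early ACT 1, and 100 and 95 without Early CTL 1 and Early CTL 2. Early ACT 1 held the fewest counts of its group (4602109 against 12972505 and 12934170).

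For 15 named mediators the late rise was larger without a stimulus, while the test was not passed for EREG (difference 1.11 ± 0.34, adjusted p = 0.164), CCL18 (0.39 ± 0.20, adjusted p = 0.484), TSLP (1.47 ± 0.39, adjusted p = 0.0574) and IL1RN (0.60 ± 0.16, adjusted p = 0.0617). IL6 was 34.1 ± 2.88 CPM early and 82.4 ± 2.86 CPM late without a stimulus, and 184 ± 10.2 and 119.8 ± 11 CPM with it, so the late difference changed sign (difference of log2 fold changes 2.14 ± 0.17, adjusted p = 9.17e-09). CSF3 behaved alike, 188 ± 6.71 and 590.2 ± 38.9 CPM without and 816 ± 147 and 689 ± 2.62 CPM with a stimulus (2.13 ± 0.17, adjusted p = 9.17e-09). CXCL2 kept a smaller late rise when stimulated, 0.69 against 2.49 (adjusted p = 5.67e-07 for the difference). NLRP3 rose late without a stimulus and fell with it, 702 ± 62.5 to 389.9 ± 10.2 CPM (1.46 ± 0.15, adjusted p = 5.67e-07). TXNIP went the other way. It fell 5.10-fold late without a stimulus, but early stimulated cells were already at 83 ± 5.48 CPM and late ones at 60.1 ± 4.44 CPM (-1.73 ± 0.16, adjusted p = 9.72e-08). LRRC25 and BMF followed the same pattern, with differences of -1.43 ± 0.23 and -1.10 ± 0.18.

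Some interferon-stimulated genes fell further in late cells with a stimulus than without: OAS2 fell late by 2.22 on the log2 scale without and 3.20 with a stimulus (difference 0.98 ± 0.20, adjusted p = 0.00888), and MX1 fell late by 1.58 and 2.61. For other lower genes the test of the difference between conditions was not passed, which does not show that they moved alike. The differences were -0.15 ± 0.17 for TNFRSF1B (adjusted p = 0.814), 0.18 ± 0.18 for MYD88 (adjusted p = 0.778), 0.17 ± 0.15 for FOS (adjusted p = 0.742) and -0.01 ± 0.19 for S100A8 (adjusted p = 0.996). Among genes that rose, the same held for HSPH1 (0.22 ± 0.18, adjusted p = 0.711), SRXN1 (0.10 ± 0.14, adjusted p = 0.871) and SLC7A11 (0.17 ± 0.17, adjusted p = 0.789).

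**Figure D4:**
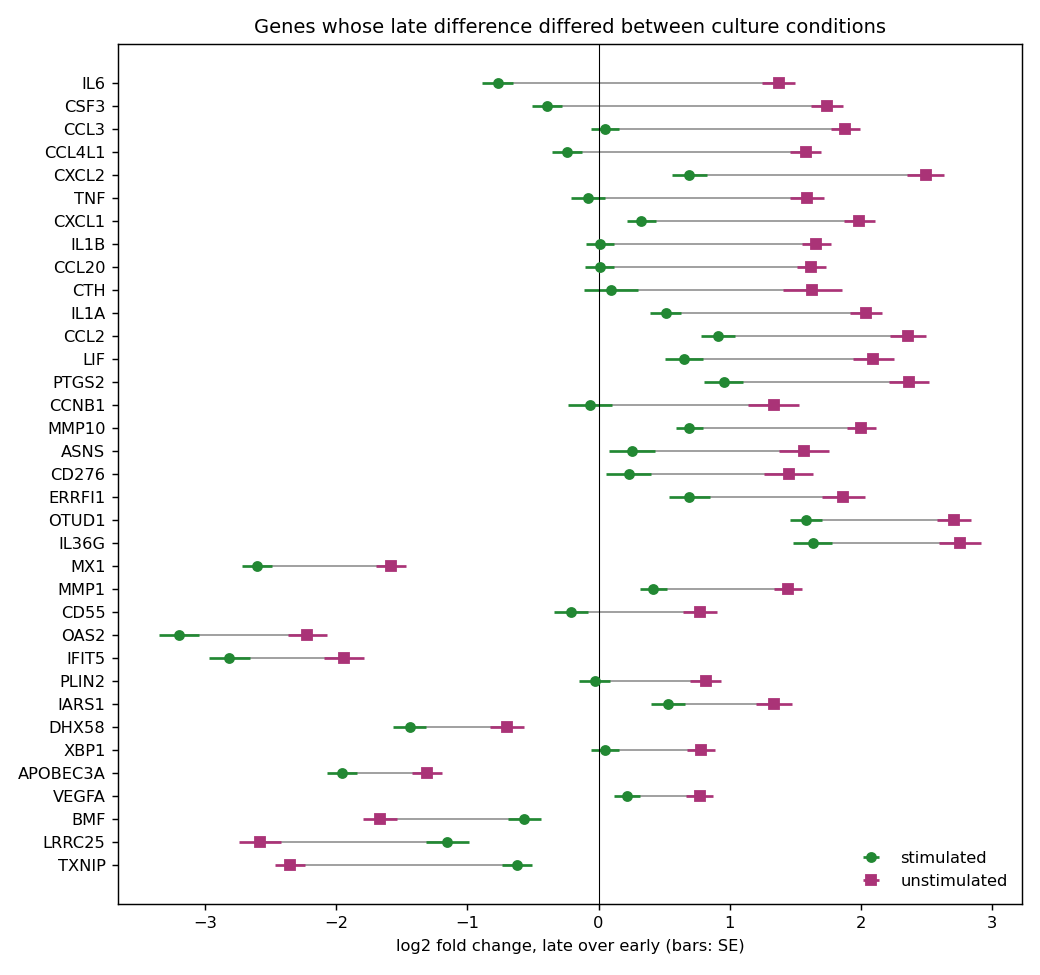
For 35 named genes whose late difference itself differed between culture conditions, the log2 fold change of late over early cells is plotted without (purple squares) and with (green circles) LPS and interferon-gamma, with bars of 1 SE. Mediators from IL6 to IL36G lie farther right without a stimulus, and LRRC25, BMF and TXNIP farther left.

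In the same coordinates of the authors' deposited table, CXCL2 (ENSMMUG00000048596) lies on chromosome 5 from 60487858 to 60490982, PTGS2 (ENSMMUG00000016857) on chromosome 1 from 180538285 to 180548777 and OTUD1 (ENSMMUG00000009247) on chromosome 9 from 23627760 to 23629202. That table puts MYD88 (ENSMMUG00000000995) on chromosome 2 from 104619700 to 104624994, STING1 (ENSMMUG00000012048) on chromosome 6 from 137257131 to 137264299 and TNFRSF1B (ENSMMUG00000021447) on chromosome 1 from 11463897 to 11505944. TXNIP (ENSMMUG00000007338) lies on chromosome 1 from 121623743 to 121630937 and HSPH1 (ENSMMUG00000013707) on chromosome 17 from 10687783 to 10713878 in that table. Counts are over whole genes, and exon or UTR parts were not separated.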

How the data were processed

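The authors deposited raw gene counts, whole numbers per gene and library with no scaling. SMART-Seq v4 and Nextera XT, per the labels' protocols, do not mark the strand, so overlapping or antisense genes cannot be parted. Build Mmul_8.0.1 and bcl2fastq come from the submitters' processing notes, and no aligner or counter is named in the sources used here. The authors' tables hold, per the file headers, a log2 fold change with its standard error, a test score and p-values, only for genes with an adjusted p under 0.05. No per-sample column was left out. Of 32386 genes, 2525 took names from the count table and 12782 from a name table. Names found only in the authors' tables stay outside list counts, and 14260 genes had none (10.58% of counts).

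All 12 libraries were fitted in edgeR 4.0.16 (R 4.3.3): filterByExpr by group, TMM, robust quasi-likelihood F test, a coefficient per group, Benjamini-Hochberg at 0.05. The code was tested on simulated data with few changed genes, as many up as down. That setting lacks the library-wide shifts seen here, so it does not check the scaling. Each SE was taken as the size of the log2 change divided by the root of its F value, and CPM uses library totals without TMM factors. A gene list is described by counts and its median, with no test of a list. Members and the 38 lists were chosen with earlier results of these data known. Named genes are up to 12 per direction by size and up to 8 by level among those changed at least 2-fold, with groups that do not overlap, up to 4 called members per list by p, and 12 preset genes. Other genes the text names, among them TLR4, IL10, CSF1, NLRP3, CASP1, HSF1, HMOX1, NQO1 and SLC2A1, were added after their values were seen, as was the restriction of the list alternatives to members at 10 CPM or more. Replicate numbers were checked for pairing: deviations of same-numbered early and late libraries correlated at 0.127, 0.117 and 0.324. Pairs of unlike number gave 0.09 and 0.076 between libraries 1 and 2, and -0.196 to -0.157 where library 3 took part. These values do not settle a pairing, and the labels give only the numbers. Alternatives were other scalings and filters, DESeq2 1.42.0, only the unstimulated libraries, the replicate block and each library left out. Results of some genes are not reported here.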

Additional observations from a re-analysis of the deposited data

Results flagged for a closer look

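The late minus early difference itself differed between unstimulated and stimulated cells in 167 of 11826 genes by edgeR's interaction test. The values below are the log2 fold change without a stimulus minus that with one, for the named genes past that test. Mediators were IL6 2.14, CSF3 2.13, CCL3 1.83, CCL4L1 1.82, CXCL2 1.80, TNF 1.67, CXCL1 1.66, IL1B 1.65, CCL20 1.61, IL1A 1.53, CCL2 1.45, LIF 1.44, PTGS2 1.41, IL36G 1.13 and VEGFA 0.55. Stress and metabolic genes were CTH 1.54, ASNS 1.31, IARS1 0.81, PLIN2 0.85 and XBP1 0.73. Interferon-induced genes were MX1 1.02, OAS2 0.98, IFIT5 0.88, DHX58 0.74 and APOBEC3A 0.65. The others were CCNB1 1.40, MMP10 1.31, CD276 1.22, ERRFI1 1.17, OTUD1 1.13, MMP1 1.02, CD55 0.98, and with the opposite sign TXNIP -1.73, LRRC25 -1.43 and BMF -1.10. The group of stimulated early libraries holds Early ACT 1, which had the fewest counts of that group. Its part in these values was not tested beyond the fit without it.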

How the results depend on the processing

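Genes called in all ran from 4254 to 6555 over the alternatives, and each alternative kept 80.1% to 99.7% of the reported calls. The 2471 higher calls became 3756 with DESeq2 and 4011 with no filter on low counts, where more low genes were tested. At 10 CPM or more the 3238 calls were 3134 with DESeq2, 3645 with only the 6 unstimulated libraries, 3992 without Early ACT 1 (an alternative chosen after seeing the data) and 2724 to 3002 with a library left out. The 167 genes that differed between conditions (145 more positive and 22 more negative without a stimulus) were 312, 270 and 42 with DESeq2 and 546, 425 and 121 without Early ACT 1, and the cause was not tested. With a library of the comparison left out they ran from 95 to 154, 87 to 137 and 8 to 17. With the replicate number as a block the 22 became 14, the 2 integrated stress response genes that fell became 1, and no other reported count of calls moved by over 1.5 times. Of 2464 values of 176 named genes under the alternatives, 2445 kept direction and call, 19 lost the call and 0 reversed. Of 1232 list counts at 10 CPM or more, 114 moved by over 1.5 times, 20 of them with upper-quartile scaling. Depth of at least 3910680 counts a library leaves genes of a few CPM with few reads.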
